A study of Mus musculus with 2 samples.

Results

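Genes that endothelial cells adjust to blood flow and genes that set vessel tone were followed in mouse retinal endothelium as 10 members, *Klf2*, *Klf4*, *Klf6*, *Nos3*, *Edn1*, *Ednrb*, *Ece1*, *Ptgis*, *Ptgs1* and *Ace*. They were chosen by symbol for their known roles, with earlier results of these data known. All 10 are among the 19813 genes with a row in both count tables. Each has UMIs in both libraries, and each passes the minimum of 50 UMIs over both libraries that is used for the comparison of ages.

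The study sorted CD31+CD45- cells from retinas of wild-type C57BL/6 mice at postnatal day 6 (P6) and day 15 (P15) and made 1 droplet library per age. The labels give neither the sex nor the number of the animals, while the study's methods state that males and females were equal in number in all experiments. With a single library per age, an effect of age cannot be told apart from a difference between these libraries, and intervals below (95%) cover counting error only. Published cluster labels were at hand for 1560 P6 cells and for 438 of the P15 cells. After the study's exclusion criteria, as read here, for gene number, mitochondrial share and the markers *Hbb-bt*, *Neurod1* and *Cd63*, 1424 cells were left at P6 and 1644 at P15. Of the labelled cells 1399 pass this reading at P6 and 409 at P15, so it does not return the study's own set, and the cluster values below use all labelled cells. The P6 cells held a median of 4985.5 UMIs and 2135 genes, and the P15 cells a median of 4214.5 UMIs and 2047.5 genes.

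The cells carry the markers of endothelium at both ages. The 8 endothelial markers summed to 7960.4 counts per 1000000 UMIs (CPM) at P6 and 12668 CPM at P15, none of them at 0, with *Cldn5* the most abundant at 5584 and 9955 CPM. Marker sums of other cells were low but higher at P15. The 7 pericyte genes summed to 10.85 CPM at P6 and 267 CPM at P15, nearly all of it *Rgs5* (8.76 and 241.6 CPM), with *Cspg4* at 0 at P6. *Cd63*, *Neurod1* and *Hbb-bt* are at 0 because the criteria remove cells that hold them. The 4 red cell genes rose from 22.6 to 172 CPM, led by *Hbb-bs*, and the 6 genes of retinal neurons from 13.3 to 19.3 CPM, a rise that lies in *Sag* (7.58 and 16.7 CPM), since *Crx*, *Pde6b*, *Snap25* and *Tubb3*, each on at most 15 UMIs, had less at P15. Smooth muscle genes summed to 0.654 and 6.51 CPM and those of microglia and leukocytes to 1.44 and 4.21 CPM. The list for Müller glia and astrocytes rose from 369 to 1227 CPM, of which *Glul*, also high in P6 Cap-Arterial (1591 CPM) and Arterial cells (1564 CPM), made up 366 and 1161 CPM. *Rlbp1*, a marker of Müller glia, went from 1.31 to 63.6 CPM (10 and 469 UMIs, 48.7-fold). At least 1.5-fold higher at P15 were 2 of 8 endothelial markers (*Erg*, *Cldn5*), 2 of 2 tested pericyte genes, 3 of 3 red cell genes, 1 of 1 tested neuron gene and 2 of 2 glial genes, and no tested gene of these lists was lower. Among vessel type markers, 3 of 6 arterial genes were higher and 2 lower, 1 of 4 venous genes was higher, and 1 of 3 tip genes was higher and 1 lower. Over all genes tested, 18.8% were higher and 11.8% lower by the same rule. In cells without any UMI of the pericyte, smooth muscle, neuron, leukocyte and red cell lists (1140 at P6 and 560 at P15), the ratios of P15 to P6 were 3.555 for *Klf2*, 3.24 for *Klf4*, 3.245 for *Klf6* and 5.48 for *Edn1*, close to those of all cells given below, but 0.413 for *Ednrb* and 0.787 for *Ace*, which had too few UMIs for a call. That choice does not remove cells with UMIs of the glial list.

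Laminar shear on the endothelial surface is sensed by junctional and membrane proteins and passed through the MEK5 to ERK5 kinase cascade to MEF2 factors, which raise the zinc finger factors KLF2 and KLF4. These factors are known to raise endothelial nitric oxide synthase and thrombomodulin and to lower endothelin-1 and inflammatory genes, so that flow and vessel tone are coupled. Nitric oxide and prostacyclin relax the vessel wall, whereas endothelin and angiotensin II constrict it. In the retina of the newborn mouse, vessels spread over the surface and are remodelled into arteries, capillaries and veins while flow is established.

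*Klf2*, *Klf4*, *Klf6* and *Edn1* are the members that differed by more than 3-fold between the libraries, so the DNA before their start sites is shown. Of the 10 members, 8 had a promoter in the RefSeq table (build GRCm38.p6), and *Nos3* and *Ptgis* did not. The lines below hold the 220 bases from 250 to 31 bases before the RefSeq start, 5′ to 3′ on the strand of the gene: *Klf2* at chr8:72318812-72319031 (plus strand), *Klf4* at chr4:55532506-55532725 (minus strand), *Klf6* at chr13:5861239-5861458 (plus strand) and *Edn1* at chr13:42301226-42301445 (plus strand). Capitals mark matches, on either strand, to the MEF2 consensus, the CArG box of SRF, the KLF element CACCC, the AP-1 element TGANTCA and the CRE half-site TGACG.
Klf2: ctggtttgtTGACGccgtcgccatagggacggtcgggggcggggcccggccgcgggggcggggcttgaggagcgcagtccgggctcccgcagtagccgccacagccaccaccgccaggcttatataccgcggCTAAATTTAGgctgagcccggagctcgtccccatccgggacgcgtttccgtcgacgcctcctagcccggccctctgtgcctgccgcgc
Klf4: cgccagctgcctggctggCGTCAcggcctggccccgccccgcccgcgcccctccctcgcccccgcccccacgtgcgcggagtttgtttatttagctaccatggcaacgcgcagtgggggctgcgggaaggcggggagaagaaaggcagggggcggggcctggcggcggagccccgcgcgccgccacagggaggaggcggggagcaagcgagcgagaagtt
Klf6: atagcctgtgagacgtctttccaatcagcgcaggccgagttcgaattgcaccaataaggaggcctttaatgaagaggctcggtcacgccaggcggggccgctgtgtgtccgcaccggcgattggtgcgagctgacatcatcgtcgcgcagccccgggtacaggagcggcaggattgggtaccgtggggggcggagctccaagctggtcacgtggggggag
Edn1: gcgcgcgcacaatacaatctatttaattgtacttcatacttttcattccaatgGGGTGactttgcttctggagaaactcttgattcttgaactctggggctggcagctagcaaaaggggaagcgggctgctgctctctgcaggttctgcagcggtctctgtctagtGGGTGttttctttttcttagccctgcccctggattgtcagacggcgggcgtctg
The *Klf2* window holds 1 match to the MEF2 consensus, 118 to 109 bases before the start and the same on both strands, and 1 to TGACG. The *Klf4* window holds 1 match to TGACG on its minus strand and the *Edn1* window 2 matches to CACCC, both on the minus strand. The *Klf6* window holds none of the motifs, and no window holds a CArG box or TGANTCA. No matches overlap. Among 32851 promoter windows of the same length, 2.60% hold the MEF2 consensus, 1.30% a CArG box, 47.8% CACCC, 6.115% TGANTCA and 14.8% TGACG. Base composition differs among them: G and C make up 71.4% of the *Klf2* window, 74.55% of *Klf4*, 63.2% of *Klf6* and 50.9% of *Edn1*, beside a median of 51.8% over all windows. A match is a description of the letters and no binding was measured here.

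Between the libraries, members moved in both directions. A member was called where its CPM differed at least 1.5-fold. By that rule 5 of the 10 members were higher at P15 (*Klf2*, *Klf4*, *Klf6*, *Nos3*, *Edn1*), beside 18.8% of all 10972 genes tested, and 3 were lower (*Ednrb*, *Ptgis*, *Ace*), beside 11.8% of them. *Ece1* and *Ptgs1* lay between. The median log2 ratio was 0.43 over the members and 0.12 over all genes tested.

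*Klf2*, which encodes the factor most closely tied to laminar flow, had 581 CPM at P6 (564 to 599) and 2019 CPM at P15 (1986 to 2051), a ratio of 3.47 (3.36 to 3.59). The intervals are far apart, and 98.1% of the genes tested had a smaller ratio. *Klf4*, its close relative with shared targets, had 83.3 CPM at P6 (76.9 to 90.0) and 263.9 CPM at P15 (252.3 to 275.8), a ratio of 3.17 (2.895 to 3.47). *Klf6*, a factor also known from injured endothelium, had 72.7 CPM at P6 (66.8 to 79.0) and 238 CPM at P15 (227 to 249.6), a ratio of 3.28 (2.98 to 3.61). All 3 KLF genes were thus higher at P15 by a similar factor, with ratio intervals that overlap.

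**Figure D1:**
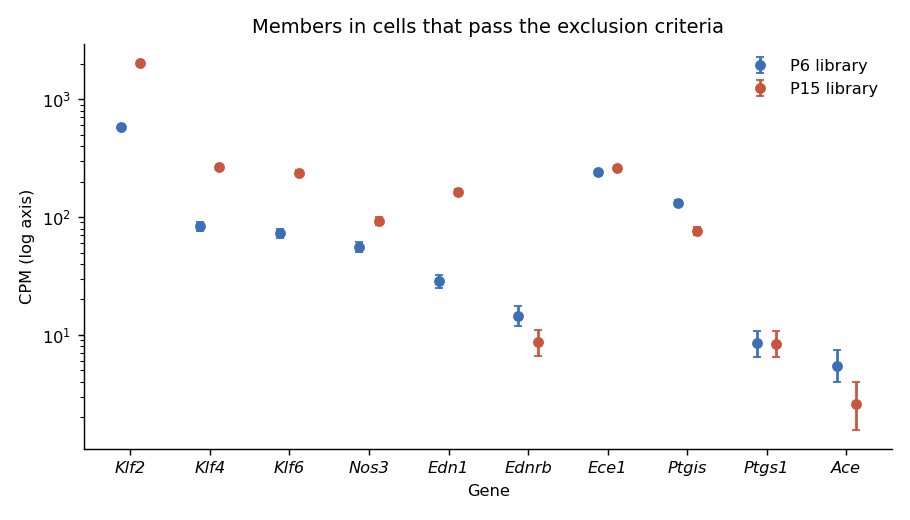
CPM of each member in the P6 and P15 cells that pass the exclusion criteria. Bars are exact Poisson 95% intervals of the counts. The axis is logarithmic. Levels of different genes are not comparable with each other.

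*Nos3*, the endothelial nitric oxide synthase (chr5:24364810-24384474, plus strand), had 55.8 CPM at P6 (50.7 to 61.4) and 92.65 CPM at P15 (85.8 to 99.9). Its ratio was 1.66 (1.47 to 1.88), higher at P15 with separate intervals but by a smaller factor than the KLF genes, and it was 1.41, under the mark for a call, after thinning and 1.501 with a total free of mitochondrial and ribosomal genes. *Edn1*, which encodes the precursor of the constrictor endothelin-1, had 28.5 CPM at P6 (24.85 to 32.55) and 162.9 CPM at P15 (153.8 to 172). Its ratio of 5.72 (4.94 to 6.63) was the largest of the members, and 99.2% of the genes tested had a smaller ratio. *Ednrb* encodes the receptor through which endothelial cells bind endothelin, and it lies at chr14:103814625-103844402 on the minus strand. It had 14.5 CPM at P6 (11.9 to 17.5, from 111 UMIs) and 8.68 CPM at P15 (6.69 to 11.1, from 64 UMIs). The ratio was 0.598 (0.433 to 0.821). Over all cells that pass, the receptor was thus lower at P15 and the ligand higher. Within clusters, the ratio of *Ednrb* was above 1 in 3 of 8. *Ece1*, the protease that cuts the precursor to the active peptide, had 239.7 CPM at P6 (229 to 251) and 261 CPM at P15 (249 to 273). Its ratio was 1.09 (1.02 to 1.16), in the middle of all genes tested, with CPM intervals that overlap.

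*Ptgis*, which makes prostacyclin (chr2:167191805-167240604, minus strand), had 132 CPM at P6 (124 to 140.3) and 76.1 CPM at P15 (69.9 to 82.7). The ratio was 0.577 (0.519 to 0.64), lower at P15 with intervals well apart. *Ptgs1*, the constitutive cyclooxygenase upstream of it (chr2:36230426-36252272, plus strand), had 8.50 CPM at P6 (6.56 to 10.8, from 65 UMIs) and 8.41 CPM at P15 (6.45 to 10.8, from 62 UMIs). Its ratio of 0.990 has an interval from 0.687 to 1.42, so the libraries were alike within counting error. *Ace*, which converts angiotensin I and breaks down kinins (chr11:105967945-105989964, plus strand), had 5.49 CPM at P6 (3.96 to 7.42, from 42 UMIs) and 2.58 CPM at P15 (1.55 to 4.03, from 19 UMIs). Its ratio was 0.469 (0.258 to 0.825), lower at P15 on few counts and with CPM intervals that just overlap.

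The share of cells with a UMI of a member moved in the same direction for most genes. Shares depend on depth, so each cell with at least 3000 UMIs was also thinned to 3000, which kept 1245 P6 and 1163 P15 cells and left out 179 and 481. *Klf2* was found in 65.45% of P6 and 91.2% of P15 cells, and in 54.9% and 89.9% after thinning. *Klf4* was found in 25.6% and 50.85% of cells (16.55% and 45.4% thinned). *Klf6* was found in 26.8% and 54.5% (17.9% and 46.6% thinned) and *Edn1* in 9.41% and 36.2% (6.345% and 27.6% thinned). The gain at P15 held for each of them at equal depth, with intervals apart. The share with *Nos3* went from 24.9 to 31.1% (15.5 to 21.6% thinned), that with *Ptgis* from 45.7 to 25.8% (31.7 to 18.1% thinned) and that with *Ace* from 2.60 to 0.973% (1.69 to 0.43% thinned). *Ece1* was seen in 66.1% of P6 and 61.9% of P15 cells before thinning and in 48.1 and 49.2% after it. The order turned round, but the intervals overlap before and after, and thinning changed both the depth and the cells used. Shares for *Ednrb* (4.92 and 3.53%, thinned 3.13 and 2.15%) and *Ptgs1* (4.003 and 3.22%, thinned 2.01 and 2.24%) overlapped between the libraries. The share intervals of 7 of the 10 members did not overlap between the ages, beside 39.9% of the 10972 genes, and after thinning the same 7 were apart, beside 30.2%.

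The same shares were taken in barcodes that should lack endothelial genes. At P6, 44 barcodes with *Neurod1* and without *Pecam1* or *Cdh5* UMIs had a median of 3540.5 UMIs, against 4985.5 in the cells that pass. *Klf2* was found in 11.4% of these barcodes, *Klf6* in 13.6%, *Ece1* in 22.7%, *Ptgis* in 9.09%, and each of *Klf4*, *Edn1* and *Ednrb* in 2.27%, whereas *Nos3*, *Ptgs1* and *Ace* had no UMI there. At P15 such barcodes numbered 5, and 45 barcodes with pericyte genes in place of *Pecam1* and *Cdh5* (median 3517 UMIs) were used instead. *Klf2* was found in 51.1% of them, *Ece1* in 40.0%, *Klf6* in 33.3%, *Klf4* and *Ptgis* each in 11.1% and *Nos3* in 4.44%, while *Edn1*, *Ednrb*, *Ptgs1* and *Ace* had no UMI. Whether these UMIs come from the cell in the barcode or from free RNA was not tested.

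Immediate early genes, which cell dissociation can raise and which share inputs with the KLF genes, moved in the same direction. The list of 17 such genes summed to 1135 CPM at P6 and 4189 CPM at P15. Of 16 tested genes 15 were higher, beside 18.8% of all genes, and 0 lower, beside 11.8%, with a median log2 ratio of 1.78. Its most abundant gene was *Ier2* at P6 (297 CPM) and *Junb* at P15 (836 CPM), and none was at 0. Their part in the age ratios cannot be told apart from that of age, but cells matched on them can be compared. Of the P15 cells, 189 (11.5%) had an immediate early level at or below the P6 median of 789.7 CPM, and these summed to 475 CPM, against 406.5 CPM in the 712 P6 cells at or below it. Their median depth was 2869 UMIs at P15 and 4961.5 at P6.

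In the matched cells *Klf2* had 359 CPM at P6 (340.4 to 379) and 1231 CPM at P15 (1145 to 1322), a ratio of 3.43. That is about the ratio of all cells. *Klf4* had 41.8 CPM (35.6 to 48.8) and 102 CPM (78.4 to 131), a ratio of 2.44, and *Klf6* had 54.6 CPM (47.4 to 62.5) and 129.6 CPM (103 to 161), a ratio of 2.37. Both ratios were smaller than in all cells, with P15 still above P6. *Edn1* had 17.5 CPM (13.6 to 22.2) and 108.5 CPM (84.1 to 138), a ratio of 6.201, and *Nos3* had 55.6 CPM (48.4 to 63.6) and 113 CPM (88.4 to 143), a ratio of 2.04. For *Ptgis* the values were 133 CPM (122 to 145) and 74.5 CPM (54.55 to 99.4), a ratio of 0.56, lower at P15 as in all cells. *Ece1* was level at 239.5 and 241 CPM. Cells without any immediate early UMI numbered 98 at P6 and 39 at P15, and *Klf2* there was 243 CPM (197 to 296) and 1081 CPM (869 to 1328). Their median depth was 3889 UMIs at P6 and 2049 at P15. There *Klf4* (10 and 17 UMIs) and *Edn1* (3 and 11 UMIs) also had intervals apart. Those of *Klf6* overlap, at 51.5 CPM (31.9 to 78.7) and 96.1 CPM (41.5 to 189). Within the P6 library *Klf2* was 803.9 CPM in cells above the median of the list and 359 CPM in the others, so the list and *Klf2* also went together at a single age.

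**Figure D2:**
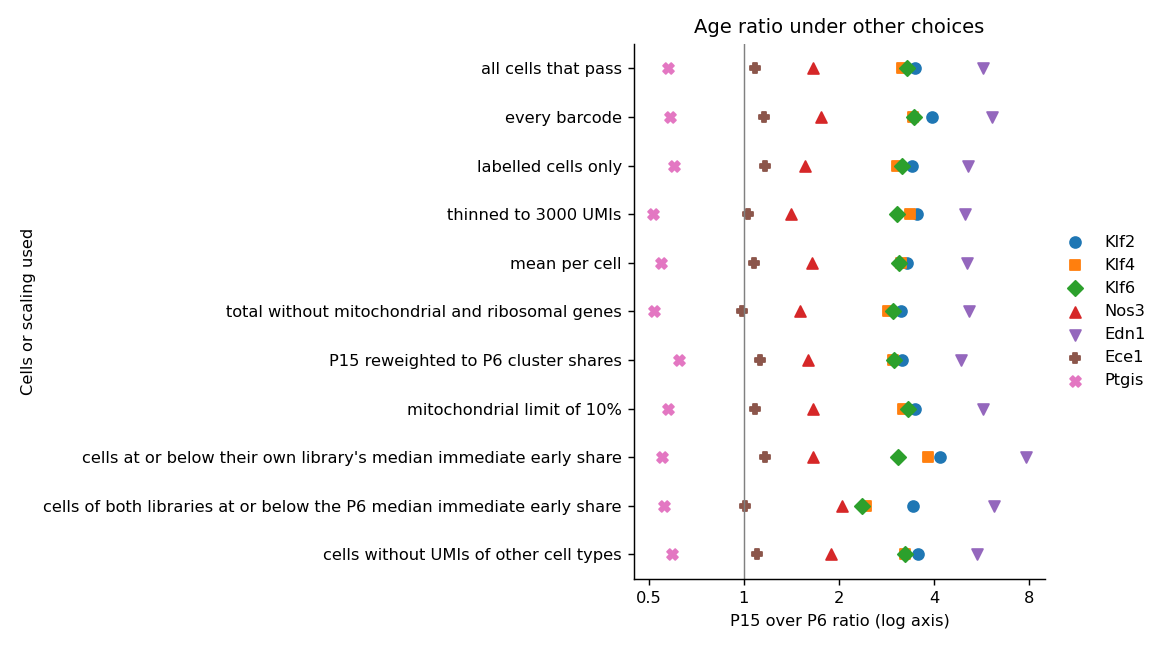
Ratio of P15 to P6 for the members with at least 200 UMIs over both libraries, under different choices of cells and scaling. The grey line marks a ratio of 1. The ratio axis is logarithmic. Cells without an immediate early UMI are left out for their number.

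Among the 17 genes of the KLF family, 14 had rows in both tables and 10 were tested, of which 7, the 3 members among them, were higher at P15, beside the 18.8% of all genes, and 0 lower, with a median log2 ratio of 0.92. Besides the members these were *Klf9* (11.4 to 115 CPM, 10.1-fold), *Klf13* (454 to 879.9 CPM, 1.94-fold), *Klf3* (89.2 to 164 CPM, 1.84-fold) and *Klf7* (82.6 to 125 CPM, 1.515-fold, but 1.37 with a total free of mitochondrial and ribosomal genes). *Klf10* at 1.455, *Klf11* at 1.43 and *Klf16* at 1.16 stayed below the 1.5-fold mark. The largest ratio was that of *Klf9*, a factor known to respond to glucocorticoids.

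Of 16 tested genes of flow sensing, from *Piezo1* to the MEF2 and CCM genes, 4 were past 1.5-fold, beside 30.7% of all genes. At P15, 2 were higher, *Piezo1* (24.6 to 63.8 CPM, 2.59-fold) and *Heg1* (89.7 to 167 CPM, 1.86-fold), and 2 were lower, *Plxnd1* (0.635) and *Mef2d* (0.509), with a median log2 ratio of 0.36. *Mapk7*, which encodes ERK5, had 15.04 and 19.3 CPM, and *Mef2c* had 158 and 175 CPM. Genes known to be raised by KLF2, KLF4 or laminar flow did not move as a block: of 6 tested, *Thbd* (47.85 to 114.5 CPM, 2.39-fold) and *S1pr1* (128 to 235 CPM, 1.84-fold) were higher, *Aqp1* (0.155), *Plpp3* (0.427) and *Gja4* (0.507) were lower, and the median log2 ratio was −0.63. Of 4 tested genes known to be lowered by them, *Vcam1* (1.76) and *Angpt2* (1.74) were higher and *Cxcr4* (0.428) was lower, with a median of 0.37.

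Counts for partners of the vasoactive members stand beside the 18.8% of all genes higher and 11.8% lower at P15. Of 9 tested genes of nitric oxide synthesis and response, 0 were higher and only *Ddah1*, which clears an inhibitor of the synthase, was lower (178.5 to 114 CPM, 0.637), with a median log2 ratio of 0.08. The cofactor enzyme *Gch1* had 53.2 and 73.7 CPM (1.38-fold) and the argininosuccinate synthase *Ass1* 27.5 and 40.8 CPM (1.49-fold). Of 5 further endothelin genes only *Ece2* was tested (25.4 and 24.3 CPM, 0.957), while *Edn3* had 1 UMI at P6 and 39 at P15 and *Ednra*, the receptor of muscle cells, 1 and 12. Of 7 tested prostanoid genes, the exporter *Abcc4* (19.35 to 48.0 CPM, 2.48-fold) and the thromboxane receptor *Tbxa2r* (10.6 to 21.7 CPM, 2.05-fold) were higher. *Ptges3* (0.584), *Hpgds* (0.434) and the prostaglandin carrier *Slco2a1* (0.343) were lower, with a median of 0.41. Of 9 angiotensin and kinin genes only the bradykinin receptor *Bdkrb2* was tested, at 7.45 and 7.87 CPM (median 0.08), and *Agt* had no UMI in either library. Of 5 tested genes of adrenomedullin and natriuretic peptides (median 0.06), the dilator *Adm* was higher (86.6 to 465 CPM, 5.37-fold), and the natriuretic peptide receptors *Npr1* (119 to 38.5 CPM, 0.324) and *Npr3* (25.0 to 11.0 CPM, 0.44) were lower. The secreted constrictor *Edn1* and the secreted dilator *Adm* thus rose by similar factors. By P6 cluster, however, *Adm* was 274 CPM in Tip and 5.06 CPM in Arterial cells, and *Edn1* was 14.3 and 147 CPM.

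By cluster at P6, the Arterial cluster had the most members called higher, but *Edn1*, *Nos3* and *Ednrb* were also called higher outside the arterial clusters. Clusters were built from principal components of the integrated expression data, and *Klf2* and *Ptgs1* were among the genes used to name them. Ratios to all other labelled cells are thus a description. In the 40 Arterial cells 7 of the 10 members were at least 1.5-fold higher (*Klf2*, *Klf4*, *Klf6*, *Nos3*, *Edn1*, *Ednrb*, *Ace*), beside 24.4% of 9834 genes, and *Ptgis* and *Ptgs1* were lower, beside 24.8%. Of these, *Ednrb* (6 UMIs, 0.82 to 5.09) and *Ptgs1* (0 UMIs, up to 2.05) have ratio intervals that include 1. In the 162 Cap-Arterial cells 5 were higher (*Klf2*, *Klf4*, *Klf6*, *Edn1*, *Ace*), beside 16.4% of the genes. There 2 were lower, *Ptgis* and, on 5 UMIs with a ratio interval that includes 1, *Ptgs1*, beside 14.3%. In the 198 Proliferative cells 4 were lower (*Klf2*, *Edn1*, *Ednrb*, *Ace*), beside 13.6%, and the interval of *Ace*, on 5 UMIs, includes 1. In the 155 Primitive cells 7 were lower, all but *Ednrb*, *Ptgis* and *Ptgs1*, beside 43.1%, and in the 170 Tip cells only *Ednrb* was higher, beside 7.49%, and 5 were lower (*Klf2*, *Klf4*, *Edn1*, *Ptgis*, *Ace*), beside 11.6%. The ratio intervals of *Ace* in Primitive and Tip cells, on at most 3 UMIs, include 1. In the 414 Cap-Venous cells *Edn1* (1.66, 1.28 to 2.14) and *Ptgis* were higher, beside 3.25% of the genes, and *Ace* was lower, beside 7.96%. In the 149 Capillary cells *Nos3* (1.51, 1.07 to 2.07), *Ece1* and *Ptgs1* were higher, beside 23.0%, and *Edn1* was lower, beside 12.3%. In the 42 Venous cells *Ednrb*, *Ptgis* and *Ptgs1* were lower, beside 21.0%. The intervals of *Ptgs1* in Capillary and Venous cells and of *Ednrb* in Venous cells include 1. The 230 Stalk cells had no member past 1.5-fold, beside 3.895% of the genes higher and 10.5% lower. That depends on the processing. After thinning, *Klf2* (0.627), *Klf4* (0.633) and *Edn1* (0.569) were called lower there. With the mean per cell *Edn1* (0.550) and *Ace* (0.459) were called lower. In labelled cells that pass the criteria *Edn1* (0.6135) was called lower and *Ednrb* (1.513) higher.

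*Klf2* fell from 2181 CPM in Arterial (1980.1 to 2397) and 1512 CPM in Cap-Arterial cells (1430 to 1598) to 562 in Venous, 547 in Capillary, 521 in Cap-Venous, 423 in Stalk and 380.4 in Proliferative cells. It was lowest in Tip (290.4 CPM, 260 to 324) and Primitive cells (245 CPM, 215 to 279). Intervals overlap from Venous to Cap-Venous, from Stalk to Proliferative and from Tip to Primitive, and the highest cluster stood 8.89-fold above the lowest. *Klf4* kept nearly the same order, from 430.2 CPM in Arterial (344 to 532) and 248 CPM in Cap-Arterial cells (215 to 284) to 29.7 CPM in Primitive and 25.9 CPM in Tip cells, a 16.6-fold span. The clusters between, from Venous (77.3 CPM) to Proliferative (59.7 CPM), overlap with their neighbours. Arterial and Cap-Arterial cells thus stood apart from all other clusters for both genes.

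*Klf6* behaved differently from its relatives. It was 141 CPM in Cap-Arterial (117 to 169), 137 CPM in Arterial (90.05 to 199), 98.4 CPM in Venous and 93.8 CPM in Tip cells (76.7 to 114), and only Primitive cells, at 10.6 CPM (5.09 to 19.5), stood apart from the next cluster. Tip cells, which were low in *Klf2* and *Klf4*, ranked among the upper clusters for *Klf6*.

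**Figure D3:**
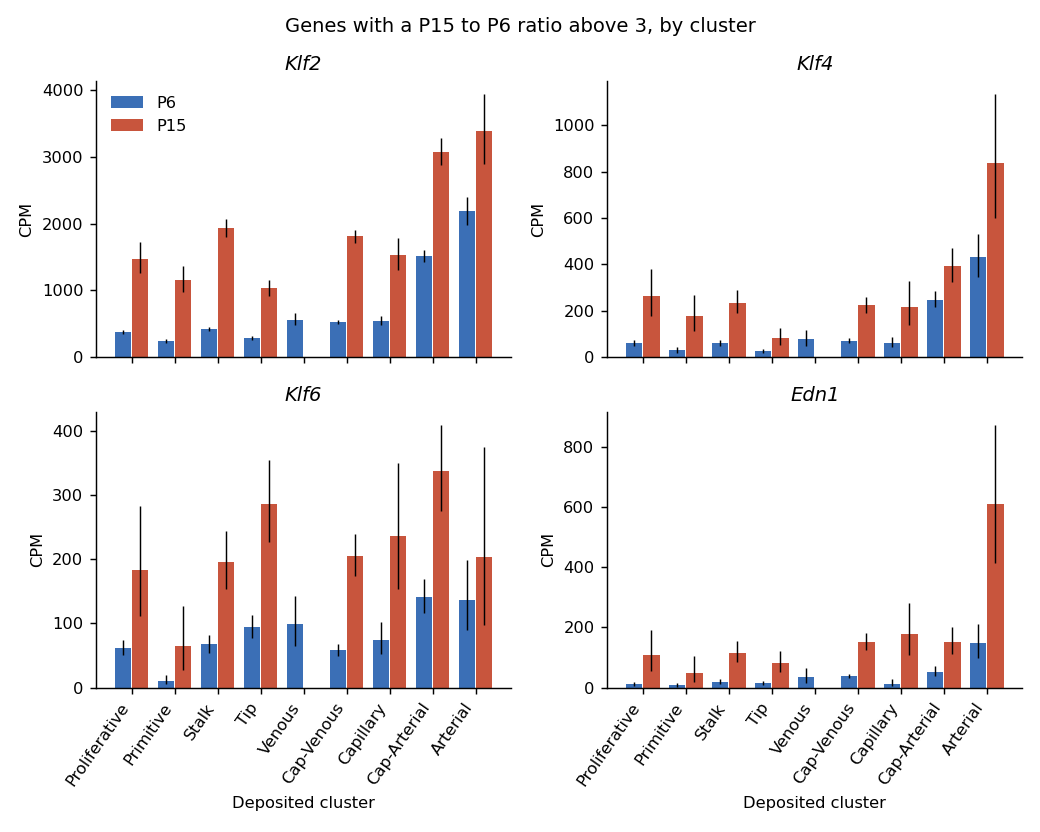
CPM of the KLF genes and *Edn1* by deposited cluster and age, with exact Poisson 95% intervals. Only part of the P15 cells had a label at hand, and the P15 Venous cluster is not drawn because it held too few cells.

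*Nos3* was highest in Arterial (96.15 CPM, 57.9 to 150.2) and Capillary cells (78.4 CPM, 56.3 to 106) and lowest in Primitive cells (27.6 CPM, 18.0 to 40.4), and every neighbour in its order overlaps with the next. *Edn1* was 147 CPM in Arterial cells (98.3 to 211), apart from the 53.8 CPM of Cap-Arterial cells (39.3 to 72.0), but its 29 UMIs come from 9 cells, with 10 in a single cell, and the share of cells was 22.5% against 21.0%. It was followed by Cap-Venous at 38.3 and Venous at 35.15 CPM. Capillary (13.4 CPM), Proliferative (11.35 CPM) and Primitive cells (8.49 CPM, 3.67 to 16.7) were lowest, a 17.3-fold span. *Ednrb* was highest in Tip cells, at 33.1 CPM (23.3 to 45.6, from 37 UMIs), 2.97-fold above the other labelled cells (1.97 to 4.38), and next in Arterial cells at 30.4 CPM from 6 UMIs (11.1 to 66.1). After thinning the Tip ratio was 1.89 from 10 UMIs, and Arterial cells, at 3 UMIs, stood above Tip cells. All neighbours in the order of *Ednrb* overlap.

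*Ece1* was highest in Capillary cells, at 407 CPM (354.5 to 466), 1.84-fold above the other cells (1.59 to 2.12), and lowest in Primitive cells, at 144 CPM (121 to 171). Both ends stood apart, and the clusters between ran from 261 CPM in Tip to 199.5 CPM in Cap-Venous cells with overlaps throughout. *Ptgis* was highest in Cap-Venous cells (175 CPM, 159 to 191), 1.515-fold above the others (1.35 to 1.70, but 1.45 and not called after thinning). It was lowest in Arterial (65.8 CPM, 35.0 to 112.5) and Cap-Arterial cells (84.9 CPM, 66.3 to 107). Venous cells followed at 87.9 CPM (56.9 to 129.7), a ratio to the others of 0.66 (0.426 to 0.98). *Ptgs1* had 0 UMIs in the Arterial cells, where its interval reaches 18.7 CPM and 3 counts would be 15.2 CPM, and at most 25 UMIs in any cluster, so its order is within counting error. *Ace* was 81.0 CPM in Arterial cells (46.3 to 132, from 16 UMIs), 20.1-fold above the other labelled cells (10.5 to 37.0). These UMIs come from 9 cells, with 5 in a single cell. The ratio was 14.8 in labelled cells that pass the criteria (11 UMIs) and 18.9 after thinning (8 UMIs). *Ace* fell under the UMI minimum in both, so it was not called there. Cap-Arterial cells followed at 16.75 CPM (9.15 to 28.1) and Cap-Venous cells were lowest at 1.13 CPM (0.233 to 3.29, from 3 UMIs), a span of 71.8-fold.

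**Figure D4:**
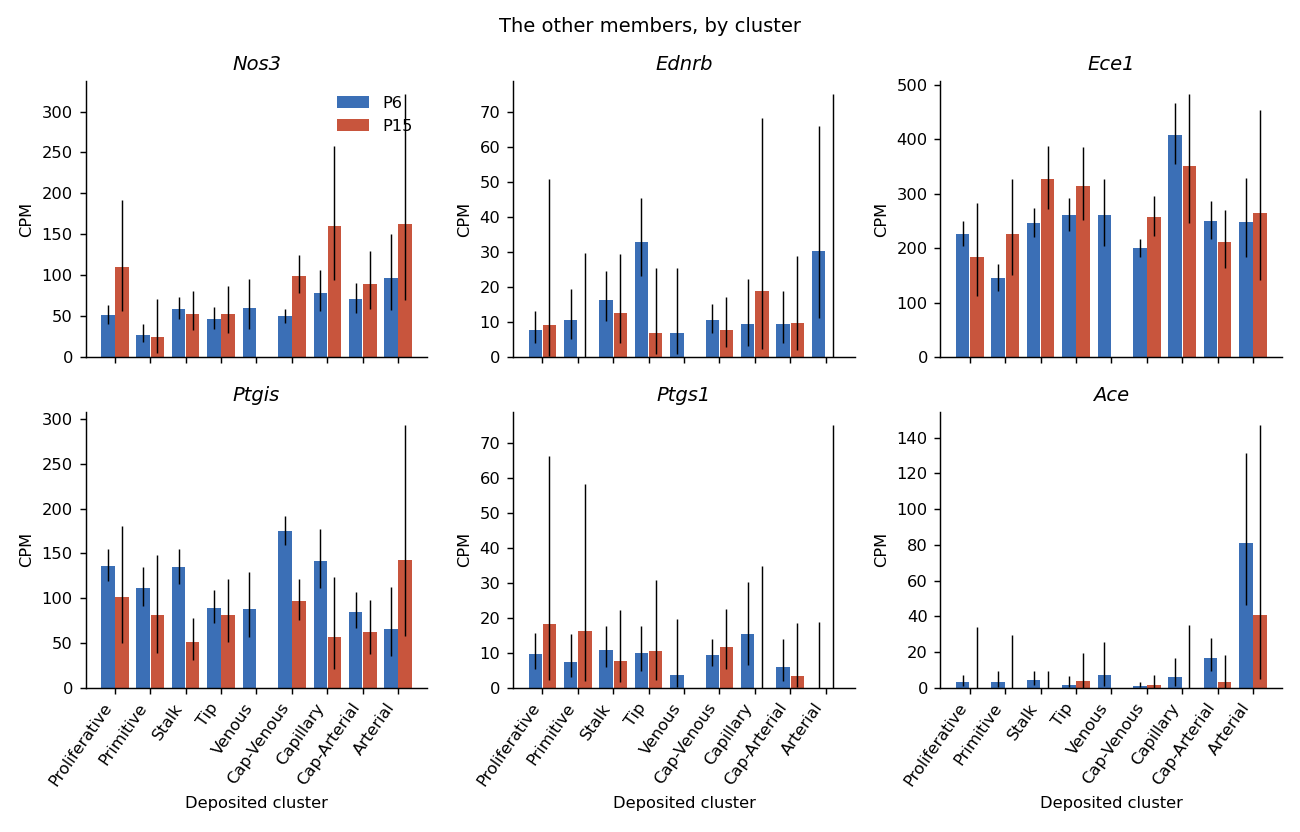
CPM of the other members by deposited cluster and age, with exact Poisson 95% intervals. *Ednrb*, *Ptgs1* and *Ace* rest on few UMIs in most clusters.

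Immediate early genes also followed the clusters, with Primitive cells lowest (462 CPM at P6, 1267 CPM at P15), Cap-Arterial cells high (2053 and 5209 CPM) and Arterial cells highest (3806 and 7518 CPM). Of the P6 cells at or below the median share of the list among labelled cells, 39 were Cap-Arterial and only 1 was Arterial, so the list and the Arterial cluster cannot be told apart. In those 39 Cap-Arterial cells *Klf2* was 864 CPM, 2.64-fold above the other labelled cells with a low share. Tip cells had more of the list than Stalk cells at P6 (1229 against 1070.3 CPM) and less *Klf2*, whereas at P15 they had less of both (3455.5 against 3957 CPM for the list). Median depth at P6 ran from 3204 UMIs in Capillary to 7954.5 in Proliferative cells, with 4400 in Arterial cells, and at P15 from 2268.5 in Capillary to 7570.5 in Proliferative cells, with 5154 in Arterial cells.

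**Figure D5:**
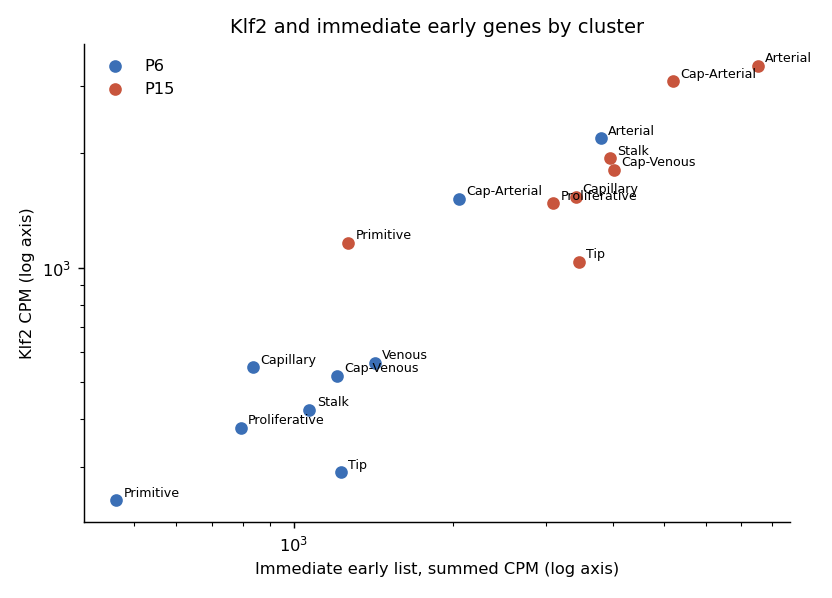
*Klf2* against the summed immediate early list by cluster and age, both in CPM on logarithmic axes. Each point is a deposited cluster, and points of the same age share a library.

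At P15 the labelled cells are fewer, and 7 members passed 50 UMIs. In the 11 Arterial cells 5 of these 7 were higher (*Klf2*, *Klf4*, *Nos3*, *Edn1*, *Ptgis*), beside 22.3% of 5833 genes, with ratio intervals that include 1 for *Nos3* (0.847 to 4.02) and *Ptgis* (0.724 to 3.86). In the 68 Cap-Arterial cells 3 were higher, the KLF genes, beside 11.2%, and in the 36 Primitive cells 4 were lower (*Klf2*, *Klf6*, *Nos3*, *Edn1*), beside 36.2%. In the 46 Tip cells 4 were lower (*Klf2*, *Klf4*, *Nos3*, *Edn1*), beside 15.2%, with an interval that includes 1 for *Nos3* (0.327 to 1.015). *Klf2* ran from 3382 CPM in Arterial (2887 to 3937.5) and 3078 CPM in Cap-Arterial cells (2884 to 3282) to 1162 CPM in Primitive and 1034.5 CPM in Tip cells, and the span narrowed to 3.27-fold. *Klf4* was 835 CPM in Arterial (599.5 to 1133) and 393 CPM in Cap-Arterial cells (326 to 470.3) and 84.45 CPM in Tip cells. *Klf6* reached 337 CPM in the Cap-Arterial cluster (275 to 409), with Tip cells at 285 CPM (226 to 354) again high in the order, and 64.6 CPM in Primitive cells. Arterial and Cap-Arterial cells thus had the highest *Klf2* and *Klf4* in both libraries. For *Klf4* at P15 the Cap-Arterial interval overlaps that of Proliferative cells (266 CPM, 178 to 382). For *Klf6* the upper clusters overlap, and with predicted labels at P15 Cap-Arterial cells (296.5 CPM) lay below Arterial (352.5 CPM) and Tip cells (300.9 CPM).

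*Edn1* at P15 was 611 CPM in Arterial cells (412 to 873, from 30 UMIs), apart from all others. Capillary cells at 179.7 CPM (108 to 281, from 19 UMIs) overlap with Cap-Arterial and Cap-Venous cells, both at 151.9 CPM, and with predicted labels they lay below both. *Nos3* was highest in Arterial (163 CPM, 70.4 to 321, from 8 UMIs) and Capillary cells (161 CPM, 93.7 to 257). Its Capillary ratio to the other labelled cells was 2.02 (1.15 to 3.335), beside 18.65% of genes higher there. *Nos3* was lowest in Primitive cells (24.2 CPM). All its neighbours overlap, and after thinning its Arterial ratio was 0.641 from 1 UMI. *Ece1* was again highest in Capillary cells (349.9 CPM, 246 to 482), with overlaps throughout. *Ptgis* was highest in Arterial cells at 143 CPM from 7 UMIs (57.3 to 294) and lowest in Stalk cells at 50.6 CPM (30.9 to 78.15), and all its neighbours overlap. *Ace* had 2 UMIs in Arterial cells, 40.75 CPM (4.935 to 147), and at most 1 in any other cluster.

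The age ratio was also taken within each of the 8 clusters with at least 10 labelled cells in both libraries. *Klf2* was higher at P15 in 8 of the 8 beyond its interval, from 1.55 in Arterial (1.29 to 1.86) to 4.74 in Primitive cells (3.82 to 5.86). *Klf4* was higher in 8, from 1.59 in Cap-Arterial (1.26 to 1.998) to 5.97 in Primitive cells (3.26 to 10.8). *Edn1* was higher in 8, from 2.82 in Cap-Arterial (1.83 to 4.36) to 13.4 in Capillary cells (5.403 to 37.8), and *Klf6* in 7, from 1.49 in Arterial (0.644 to 3.18) to 6.08 in Primitive cells (2.09 to 17.1). After thinning *Klf4* and *Klf6* were beyond the interval in 7 and *Edn1* in 6. Each of the 3 KLF genes had its smallest ratio in an arterial cluster, with an interval apart from those of all other clusters for *Klf2* but not for *Klf4* and *Klf6*. The immediate early list was higher in 8 of 8 clusters, with its smallest ratio, 1.975, in Arterial and its largest, 4.06, in Capillary cells. The matched cells could hardly be followed within clusters, since only 41 labelled P15 cells in 7 clusters had a low immediate early level. There *Klf2* was higher beyond its interval in 3 clusters, *Klf4* and *Edn1* in 1 and *Klf6* in 0, and the ratio was above 1 in 6 of the 7 for *Klf2*, 4 for *Klf6* and *Edn1* and 3 for *Klf4*.

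For the other members fewer clusters lay beyond the interval. *Nos3* was higher within 3 clusters beyond its interval, Proliferative (2.14), Capillary (2.05) and Cap-Venous (1.99), and was at 0.877 in Primitive cells. *Ece1* was slightly higher in 3, with 1.565 in Primitive cells as its largest ratio. *Ptgis* was lower beyond its interval in 3 clusters, Stalk (0.376, 0.2245 to 0.597), Capillary (0.401) and Cap-Venous (0.555). *Ednrb* was lower beyond its interval in Tip cells alone, where it went from 33.1 to 7.04 CPM (0.213, 0.0249 to 0.825), the latter from 2 UMIs. With predicted labels the P15 Tip cells had 14.4 CPM from 14 UMIs. No cluster showed *Ptgs1* or *Ace* beyond the interval. With the P15 clusters weighted as in the P6 library, the ratios were 3.16 for *Klf2*, 2.97 for *Klf4*, 2.99 for *Klf6*, 1.60 for *Nos3*, 4.86 for *Edn1* and 0.622 for *Ptgis*.

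Genes with the most similar pattern were sought over the 9 P6 clusters among 5870 genes, by Pearson r of log2 CPM, and checked over 8 P15 clusters. For *Klf2* they were *Slco1a4* (0.992, at P15 0.651), *Klf4* (0.986, at P15 0.909) and *Srgn* (0.976, at P15 0.945). For *Klf4* they were *Klf2*, *Id2* (0.977, at P15 0.981) and *Cthrc1* (0.973, at P15 0.838), so *Klf2* and *Klf4* were each among the closest of the other. *Klf6* was closest to *Setd2* (0.991, at P15 0.667), *Senp6* (0.989, at P15 0.2035) and *Strn3* (0.981, at P15 0.772) and less alike to *Klf2* (0.688, at P15 0.394). *Nos3* was closest to *Rbfox2* (0.986, at P15 0.377), *Golim4* (0.982, at P15 0.668) and *Add1* (0.981, at P15 −0.375), *Edn1* to *Oaz2* (0.968, at P15 0.210), *Ccs* (0.966, at P15 0.563) and *Ei24* (0.963, at P15 0.506), and *Ece1* to *Slc38a10* (0.973, at P15 −0.0525), *Taok1* (0.966, at P15 0.349) and *Zfp207* (0.961, at P15 0.432). *Ptgis* was closest to *Malsu1* (0.886, at P15 0.0515), *Arxes2* (0.880, at P15 −0.7515) and the venous factor *Nr2f2* (0.867, at P15 0.541). Between members, *Edn1* and *Klf2* had 0.915 at P6 and 0.798 at P15, whereas *Ptgis* and *Klf2* had −0.555 and 0.201. The points of a library share its cells and depth, and outside *Klf2* and *Klf4* few of the close patterns at P6 were as close at P15.

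Across single cells thinned to 3000 UMIs, *Klf4* and *Klf2* had a Spearman correlation of 0.361 at P6 (1245 cells) and 0.462 at P15 (1163 cells). With the immediate early list the value was 0.245 and 0.324 for *Klf2*, 0.246 and 0.307 for *Klf4* and 0.145 and 0.210 for *Klf6*. *Edn1* had 0.0674 and 0.0812 with the list and 0.0413 and 0.00879 with *Klf2*. Thus *Edn1* shared its leading cluster and its rise with *Klf2* but hardly varied with it from cell to cell, at counts of few UMIs per cell.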

How the data were processed

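For each age, the authors deposited 1 table of unnormalised UMI counts per gene and cell barcode. The submitters' processing notes name Seurat 3.0 and the build mm10, while aligner, annotation and counting strand are not given in the sources used here. *Nos3*, *Edn1*, *Ece1*, *Ptgis*, *Ptgs1* and *Ace* overlap a gene on the other strand in GENCODE M21, so it is uncertain whether UMIs of that gene are counted with them. Identifiers were matched to symbols (22695 of 22734 at P6, 21745 of 21785 at P15) and rows of a symbol were added.

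The stated criteria were read as at least 200 and at most 3500 genes, a mitochondrial share of at most 5%, and absence of *Hbb-bt*, *Neurod1* and *Cd63*. They left out 560 of 1984 P6 and 497 of 2141 P15 barcodes, and the kept cells held 7648189 and 7371443 UMIs. Doublets were not called, and 7 barcodes occur in both libraries. Cluster labels came from the study's source data, whose copy holds only the leading P15 cells. The sheet's Primordial clusters are called Primitive and Proliferative as in the study's text. The Venous cluster of P15 has 2 labelled cells and is not reported.

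UMIs were summed over cells and scaled to 1000000 (CPM). Intervals at 95% are exact Poisson for CPM, Clopper-Pearson for shares and conditional binomial for ratios, and a count of 0 is bounded by 3 counts. With 1 library per age there is no spread between samples, so no test was made. At the depth of these libraries the age ratio of a member with about 60 UMIs in each library has an interval of roughly 1.4-fold to either side. A fold call needs a ratio of 1.5 and 50 UMIs over both sets of cells. The genes named are the 10 members, the 3 genes with the closest pattern over the P6 clusters (at least 200 UMIs in labelled cells), and lists for the KLF family, flow sensing, genes raised or lowered by flow, nitric oxide, endothelin, prostanoids, angiotensin and kinins, adrenomedullin and natriuretic peptides, immediate early genes and cell type markers. Of the lists, 2 genes, 1 in each of 2 lists, are not reported here and were left out of every count and sum after the values had been seen. Members and lists were chosen with earlier results of these data known.

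Alternatives covered the cells used, thinning to 3000 UMIs, the mean per cell, another total, cluster weights, predicted labels (15 neighbours on 13 principal components, without members and listed genes), the mitochondrial limit, immediate early share, fold and UMI minimum. Promoters came from the RefSeq table of GRCm38.p6 and gene positions from GENCODE M21 on GRCm38. Scripts used Python 3.11.15, numpy 2.4.6, scipy 1.17.1, pandas 2.3.3, scikit-learn 1.9.0, scanpy 1.11.5 and matplotlib 3.10.9, and the ratio steps were tested on simulated data.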

Additional observations from a re-analysis of the deposited data

Results flagged for a closer look

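*Ednrb* had 22.8 CPM in the 560 P6 barcodes that fail the exclusion criteria, against 14.5 CPM in the cells that pass. It stands out because it is a signal in barcodes left out of the other results. By reason of exclusion, it was 30.15 CPM (23.1 to 38.7) in barcodes with *Cd63* and 22.0 CPM (18.15 to 26.5) in those with over 3500 genes, but 8.10 CPM (3.26 to 16.7) in those with *Neurod1*. At P15 the excluded barcodes had 6.16 CPM, against 8.68 CPM in the cells that pass. The cause was not tested.

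*Ptgis* in Arterial cells had a ratio to the other labelled cells of 0.494 at P6 and 1.83 at P15, which stands out because the direction differs between the libraries. The P15 value rests on 7 UMIs and its interval runs from 0.724 to 3.86, which includes 1. The difference was not tested.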

How the results depend on the processing

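No paired analysis was possible because each age has 1 library. The same 5 members were higher at P15 with every barcode, labelled cells, the mean per cell, a total without mitochondrial and ribosomal genes, reweighted clusters, a mitochondrial limit of 10% and cells at or below their own library's median immediate early share. Thinning kept *Klf2*, *Klf4*, *Klf6* and *Edn1*, while *Nos3* fell to 1.41. Over those alternatives *Klf2* ranged from 3.14 to 4.17, *Klf4* from 2.865 to 3.815, *Klf6* from 2.96 to 3.47, *Edn1* from 4.86 to 7.81 and *Ptgis* from 0.516 to 0.622. *Ednrb* and *Ptgis* were called lower in each of them, *Ednrb* from 0.425 to 0.648. *Ace* ran from 0.326 to 0.624 and fell under 50 UMIs, so that its call was lost, after thinning and in cells with a low immediate early share. A minimum of 200 UMIs left neither *Ednrb* nor *Ace* to be tested. None of the members' age ratios that were called changed direction. The other total changed the split over all genes to 13.25% higher and 15.99% lower and the median log2 ratio to −0.02.

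Some alternatives were added after the data had been seen. In cells matched at the P6 median immediate early share, 5 members were higher and 1, *Ptgis*, was lower, beside 17.1% and 17.5% of 7709 genes, with fewer members reaching 50 UMIs. *Ednrb* (0.168) and *Ace* (0 UMIs at P15) were not tested there. In cells without an immediate early UMI, 2 members were called, *Klf2* higher and *Ptgis* lower, and 3 could be tested, beside 16.7% higher and 20.35% lower of 1656 genes. A 2-fold rule called 13.03% of all genes in place of 30.7% for both directions, as its construction requires, and kept 4 members higher and 1 lower. Of 59 list genes called between the ages, the other total lost the calls of *Klf7* (1.37) and *Nrp2* (1.40), and thinning lost 4, *Angpt2* at 1.48 and *Hpgds*, *Gja5* and *Kcnj8* for too few UMIs.

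Called pairs of member and cluster numbered 43 at P6 and 20 at P15. At P6, 3.25% (Cap-Venous) to 24.4% (Arterial) of all genes tested were higher in a cluster and 7.96% (Cap-Venous) to 43.1% (Primitive) lower. At P15 these shares ran from 3.43% to 22.3% and from 6.09% to 36.2% in the same clusters. At P15, predicted labels gave 31 pairs, of which 10 are of *Ednrb* and *Ptgs1*, which the main count does not test, and 21 of members that it does. Labelled cells at or below the median immediate early share gave 32, and the cause was not tested. At P6 that choice left 1 Arterial cell, in which *Klf6*, *Nos3*, *Edn1*, *Ednrb* and *Ace* had 0 UMIs and so a ratio of 0. It also turned *Klf2* in Proliferative cells to 1.002, *Ace* in Proliferative cells to 1.32 and *Ednrb* in Venous cells to 2.58. Thinning turned *Ptgs1* to 1.26 in Venous and to 0 in Capillary cells at P6 and *Nos3* in Arterial cells at P15 to 0.641, from 1 UMI. The mean per cell turned *Ptgs1* in Cap-Arterial P6 cells to 1.01. The cause of these changes was not tested.

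Depth limits *Ptgs1*, *Ednrb* and *Ace*, for which most cluster levels rest on under 20 UMIs. The predicted labels were right for 78.8% of held-out P6 and 80.8% of held-out P15 cells. Without replicate libraries no spread between animals is known, and the labelled P15 cells are those that head a sheet and were not drawn at random.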
